A study of Mus musculus with 7 samples.

Results

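The PPAR system was examined in P14 optic nerves through 9 genes chosen by symbol: the receptors Ppara, Ppard and Pparg, the coactivator Ppargc1a, the partner receptors Rxra and Rxrg, and the target genes Angptl4, Plin2 and Ucp2. Each symbol matched 1 row, so these are 9 of the 22880 genes in the deposited table. Rows were matched by name alone.

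Control mice (CT, n = 4) carried FASN lox/lox without Cre, and mutant mice (cMU, n = 3) were olig2cre FASN lox/lox, all on a C57Bl/6 background and taken at P14. Samples are numbered CT1 to CT4 and cMU1 to cMU3. The paper's methods give developmental controls as Fasn lox/lox or lox/wt, without naming those sequenced. Controls thus carried floxed sequence too, and they differ from mutants both in Cre and in the recombined gene, which cannot be told apart. The floxed allele arose in 129X1/SvJ mice, was later crossed with C57BL/6 and DBA, and was then backcrossed to C57BL/6 over 3 or more generations. Cre was driven by Olig2 regulatory sequence, which is active in the oligodendrocyte (OL) lineage. The nerve was sequenced as whole tissue, with both nerves of 1 mouse as 1 sample, and in such tissue fewer cells of a type and less RNA per cell cannot be told apart. Fasn, which encodes fatty acid synthase, fell to 27.5% of the control level (log2 fold change -1.86, adjusted p = 0.00312 in limma-trend), from 169 to 228 FPKM in controls to 49.0 to 69.3 in mutants, so all 3 libraries labelled as mutant lay below all 4 labelled as control. It was called with any 1 sample left out.

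PPARs are nuclear receptors that bind fatty acids and their derivatives, and they act on DNA as heterodimers with RXR receptors. Coactivators such as Ppargc1a add to the transcription of bound genes, whose products take up, store, transport and oxidise lipids. In the nervous system Ppard is the common form, and OLs, astrocytes and vessel cells have all been described to respond to PPAR ligands.

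FPKM, the unit used for all levels here, scales the fragments of a gene by its transcript's length and by library size, so levels may be compared between genes as well as between samples. Sequencing gave an estimated 27452222 to 43462575 reads per sample. Markers of OLs were abundant in every nerve and those of astrocytes were clearly present, whereas 8 retina markers summed to at most 1.54 FPKM. As facts on single samples that bear on what follows, mutant sample 1 had the highest sum of 8 meningeal fibroblast markers (2432 FPKM, against 788 to 1402 in controls and 1299 and 1368 in the other mutants), and mutant sample 2 had a sum of 88.6 FPKM over 8 skeletal muscle markers, against 2.25 to 3.07 in controls. Mutant sample 1 was also the highest of all 7 samples for 32.7% of the tested genes.

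Of the 9 genes, 8 reached 0.5 FPKM in 3 or more samples and were tested, and Pparg did not. A gene was called when its adjusted p was under 0.05 in limma-trend, adjusted over 13866 genes. By that rule 1 of the 8 was called, Ppargc1a, which rose in mutant nerves, and 3 had an unadjusted p under 0.05. Over all tested genes 2.62% were called, 1.26% were called as higher in mutants, and 24.4% had an unadjusted p under 0.05, the share against which such counts are to be read throughout. All 8 fold changes were above 0, except that Ppard was just below 0 under quantile normalization, and 60.1% of all tested genes had a fold change above 0. The median log2 fold change was 0.36 for the 8 genes and 0.05 for all genes tested. In Ppara, Ppargc1a and Rxra every mutant sample lay above every control sample, which also held for 12.9% of all tested genes.

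**Figure D1:**
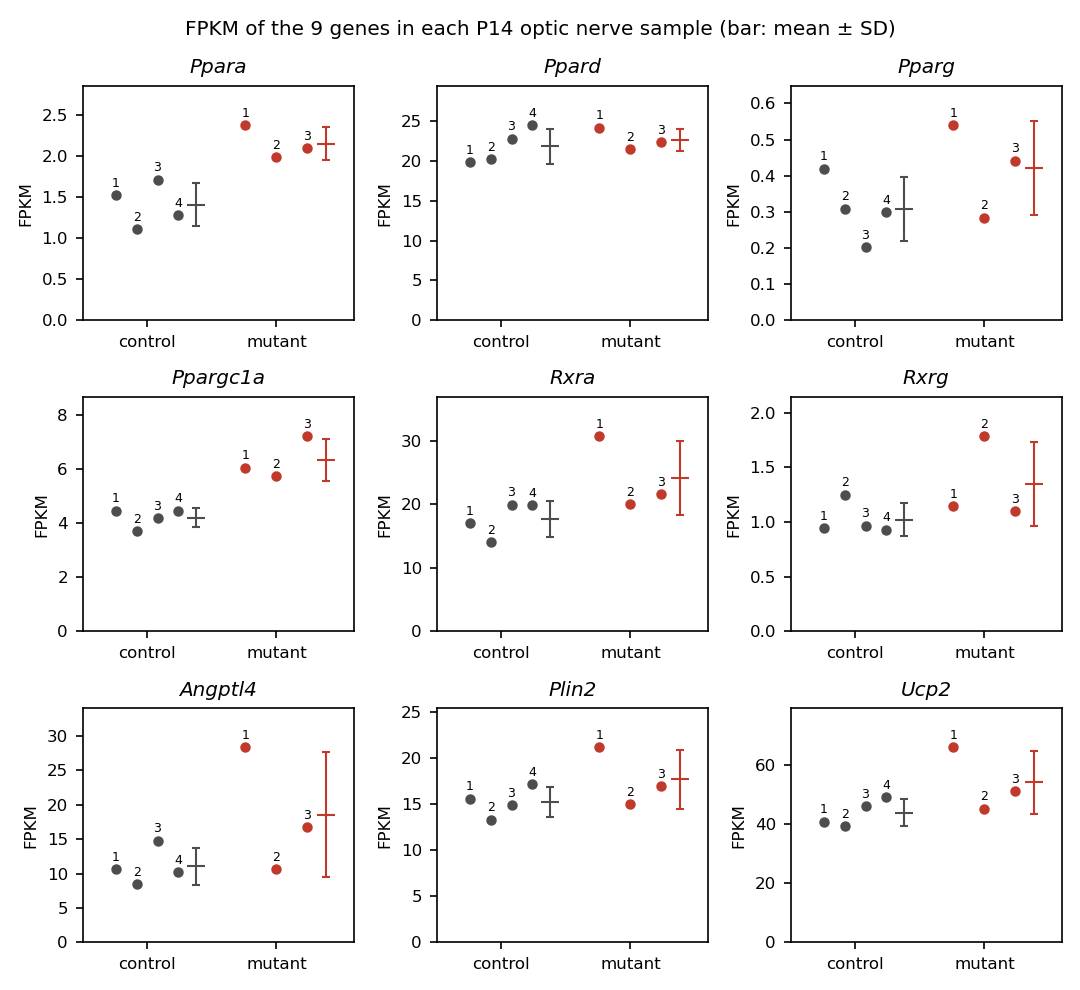
FPKM of the 9 genes in each sample, with controls in grey and mutants in red, numbers giving the sample within its genotype, and bars the mean ± SD (n = 4 and n = 3 mice). The vertical axes start at 0 and differ between panels. Mutant sample 1 was the highest sample in 6 of the 9 genes, and the groups were separate in Ppara, Ppargc1a and Rxra.

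Sequences at the start sites are shown first for the genes the results turn on: Ppargc1a as the only gene called, and Plin2 and Rxra because a sequence like the PPAR element lies there. RefSeq windows (GRCm38.p6) of 300 bases, from 250 before to 50 after the start site, were at hand for 8 of the 9 genes, in 12 windows. The PPAR element is a direct repeat of AGGTCA with 1 base between the copies, searched as AGGTCANAGGTCA with up to 2 mismatches on both strands, and 3.86% of 32851 windows held it. A single copy of AGGTCA (16.3% of windows), TGACG, the core of cyclic AMP response elements (20.8%), and ACGTG, the core of hypoxia response elements (19.6%), were searched without mismatch on both strands. Capitals mark every match, and each window is written 5′ to 3′ on the strand of its gene.
Ppargc1a, chr5:51567676-51567975, minus strand: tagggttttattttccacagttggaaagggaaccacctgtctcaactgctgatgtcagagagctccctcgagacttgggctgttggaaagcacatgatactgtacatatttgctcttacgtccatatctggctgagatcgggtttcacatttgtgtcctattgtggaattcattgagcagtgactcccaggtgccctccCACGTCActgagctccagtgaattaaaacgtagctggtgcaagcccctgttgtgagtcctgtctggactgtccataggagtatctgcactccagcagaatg
Plin2, chr4:86670010-86670309, minus strand: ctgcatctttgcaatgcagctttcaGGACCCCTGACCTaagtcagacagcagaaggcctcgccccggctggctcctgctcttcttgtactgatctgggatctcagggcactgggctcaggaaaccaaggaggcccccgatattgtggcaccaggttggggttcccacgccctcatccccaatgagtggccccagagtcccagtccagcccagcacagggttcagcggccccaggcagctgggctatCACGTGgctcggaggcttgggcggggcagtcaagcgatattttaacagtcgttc
Rxra, second window, chr2:27709042-27709341, plus strand: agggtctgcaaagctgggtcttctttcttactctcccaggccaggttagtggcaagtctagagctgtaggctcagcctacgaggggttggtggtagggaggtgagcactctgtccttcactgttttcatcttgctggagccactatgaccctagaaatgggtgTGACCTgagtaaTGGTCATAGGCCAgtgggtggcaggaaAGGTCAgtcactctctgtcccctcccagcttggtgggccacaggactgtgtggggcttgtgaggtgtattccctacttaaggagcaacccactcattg

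In the Ppargc1a window the TGACG match is read on the opposite strand from position -49 relative to the start site, and it overlaps an ACGTG match from -51. No AGGTCA and no PPAR-like repeat was found among these letters. The Plin2 window held a PPAR-like repeat with 2 mismatches from -225, on the opposite strand, 1 copy of which is an exact AGGTCA. A palindromic match to ACGTG lay across its start site, at -4 and -3. In the second Rxra window a repeat with 2 mismatches began at -75, between exact copies of AGGTCA at -87 and -48, whereas the first window held none of the letters searched. Of the 8 genes with windows, Plin2 and Rxra were the ones with such a repeat. AGGTCA alone was found in Pparg (at -28 and -9 in its first and second windows) and in Rxrg (at -88 in its second window). TGACG was found in Ppara at -222, in Ppard at -4 and in Ucp2 at -62, and ACGTG in Ppard at -213. The full cyclic AMP element TGACGTCA, held by 1.79% of all windows, was in none of the 12. A match of letters is a description and not a binding site.

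Ppargc1a (ENSMUSG00000029167, chromosome 5, 51454250 to 51567726, minus strand of GRCm38) encodes PGC-1alpha, a coactivator of PPARs and of other nuclear receptors that is known for raising mitochondrial gene expression. It had 4.46, 3.70, 4.19 and 4.45 FPKM in CT1 to CT4 and 6.04, 5.73 and 7.21 FPKM in cMU1 to cMU3. The lowest mutant sample thus lay above the highest control, and mutant sample 3 rather than sample 1 was the highest. Mean levels were 4.20 ± 0.356 FPKM (SD, n = 4) in controls and 6.33 ± 0.779 FPKM (SD, n = 3) in mutants, 151% of the control mean. Its log2 fold change was 0.54 (standard error 0.108, 95% interval 0.29 to 0.78), with an adjusted p of 0.0437 in limma-trend, the 263rd smallest p of all genes tested. An exact permutation test gave a two-sided p = 0.0571, which is the smallest that 4 mice against 3 can give. The direction held in every alternative, whereas the call rested on single samples. Without 1 sample the adjusted p was 0.0755, 0.105, 0.126 and 0.0702 for control samples 1 to 4 and 0.0685 and 0.117 for mutant samples 1 and 3, and it was 0.0378 without mutant sample 2, which held the muscle markers. It was 0.0888 with no filter on low values and 0.0514 after quantile normalization. The reads behind each level numbered 424 to 656, and 4 genes annotated as TEC, a class of transcripts awaiting experimental evidence, lie within it, 1 of them on the opposite strand.

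The 5 genes most like Ppargc1a across the 7 samples, by Pearson's r of log2(FPKM + 0.5) among 9448 genes with a mean of at least 5 FPKM, were Bhlhe41 (r = 0.992), Ocrl, Klhdc10, Nebl and Nr1d2 (r = 0.987). Bhlhe41 and Nr1d2 encode transcriptional repressors of the circadian clock, Ocrl a phosphoinositide phosphatase and Nebl a nebulin-related protein that binds actin. Of the 5, Nebl (log2 fold change 0.49, adjusted p = 0.0334) and Nr1d2 (0.33, 0.0491) were called, which both lost with any 1 sample other than mutant sample 2 left out (highest adjusted p 0.112 and 0.142). These coefficients include the difference between genotypes, and 256 genes had r above 0.9.

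Ppara (ENSMUSG00000022383, chromosome 15, 85735564 to 85802819, plus strand) encodes the PPAR form known as the main driver of fatty acid oxidation in liver. It was low in the nerve, at 1.52, 1.11, 1.71 and 1.28 FPKM in CT1 to CT4 and 2.37, 1.98 and 2.09 FPKM in cMU1 to cMU3, or 107 to 226 reads. Every mutant nerve exceeded every control nerve. The means were 1.41 ± 0.264 FPKM (SD, n = 4) and 2.15 ± 0.203 FPKM (SD, n = 3), 153% of control, and the log2 fold change was 0.48 (95% interval 0.17 to 0.80, adjusted p = 0.0917 in limma-trend), which did not pass the threshold. It lay between 0.35 and 0.59 over the alternatives, and leaving out mutant sample 1 gave 0.42.

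Ppard (ENSMUSG00000002250, chromosome 17, 28232754 to 28301469, plus strand), the widely expressed form, was the main PPAR of the nerve. Control samples 1 to 4 had 19.8, 20.2, 22.8 and 24.5 FPKM, and mutant samples 1 to 3 had 24.2, 21.4 and 22.3 FPKM. The mutant values lay within the range of the controls, the highest value being that of control sample 4. With means of 21.8 ± 2.20 (SD, n = 4) and 22.6 ± 1.38 FPKM (SD, n = 3), the log2 fold change was 0.06 (95% interval -0.14 to 0.26, adjusted p = 0.732), so the data allow a change of either sign within those bounds. It became -0.0039 after quantile normalization.

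Pparg (ENSMUSG00000000440, chromosome 6, 115361221 to 115490401, plus strand), the form that governs fat cell formation, was near the limit of detection. Its levels were 0.420, 0.309, 0.203 and 0.299 FPKM in CT1 to CT4 and 0.540, 0.284 and 0.442 FPKM in cMU1 to cMU3, which rest on 16 to 35 reads. The groups overlapped, with mutant sample 2 below 3 of the 4 controls. With no filter on low values its log2 fold change was 0.19 (adjusted p = 0.455), and a difference was not detectable at this depth. The antisense gene Gm44079 overlaps 13176 bases of the locus. The sum of 8 adipocyte markers was 4.88 to 6.20 FPKM in controls and 5.36 to 7.34 FPKM in mutants. Lipe, a lipase that other cells also use, was the 1 marker that passed the filter, while Lep was listed at 0 in all samples and Adipoq did not exceed 0.214 FPKM in any sample.

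A scaling factor common to a whole sample leaves the ratios within it as they are, and these give the balance of the 3 PPARs. Quantile normalization can change such ratios, and the shares were not recomputed under it. Ppara made up 7.01, 5.13, 6.93 and 4.92% of the summed PPAR FPKM in CT1 to CT4, and 8.77, 8.35 and 8.41% in cMU1 to cMU3. The mutants lay closely together and above all controls. The mean share went from 6.00% ± 1.12 (SD, n = 4) to 8.51% ± 0.225 (SD, n = 3), while that of Ppard went from 92.7% ± 1.28 to 89.8% ± 0.607. Each of these shifts had an exact two-sided permutation p = 0.0571, the smallest possible, and 0.0952 after Benjamini-Hochberg adjustment over 10 measures. Shares of a family move against each other, so these are not separate findings. The 10 measures also hold ratios of the same genes, and the adjusted value depends on that overlap. The share of Pparg, 1.33% ± 0.469 and 1.66% ± 0.412, overlapped between genotypes.

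**Figure D2:**
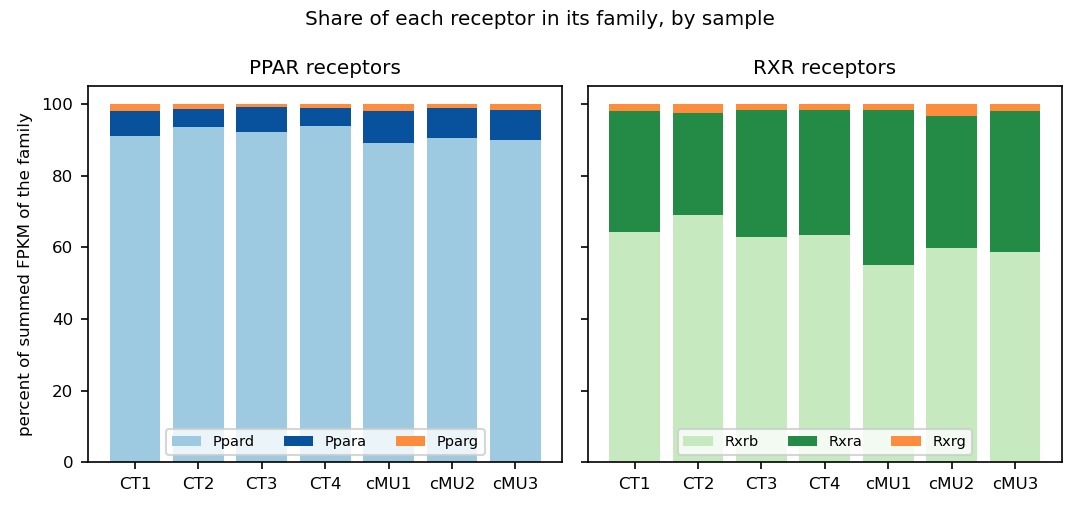
Stacked bars give each receptor's percent of the summed FPKM of its family in each sample, PPARs on the left and RXRs on the right. Ppara takes 4.92 to 7.01% of the PPAR sum in controls and 8.35 to 8.77% in mutants, and Rxra takes 28.4 to 35.5% of the RXR sum in controls and 37.0 to 43.2% in mutants.

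Rxra (ENSMUSG00000015846, chromosome 2, 27676440 to 27762957, plus strand) encodes a common partner of PPARs. It measured 17.0, 13.98, 19.9 and 19.8 FPKM in CT1 to CT4 and 30.7, 20.0 and 21.6 FPKM in cMU1 to cMU3. The groups were separate by a narrow margin, mutant sample 2 lying just above control sample 3, and mutant sample 1 stood well above the rest. Its log2 fold change was 0.42 (95% interval 0.05 to 0.80, adjusted p = 0.162 in limma-trend) and did not pass the threshold. Without mutant sample 1 it was 0.24 (adjusted p = 0.392).

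Within the RXR family the share of Rxra was 33.9, 28.4, 35.5 and 34.9% in CT1 to CT4 and 43.2, 37.0 and 39.2% in cMU1 to cMU3. The mutant shares again lay above all control shares. The difference of the mean shares was 6.62 percentage points, and 4.90 without mutant sample 1. Rxrb, the RXR form present at the highest level, had 32.2 to 36.1 FPKM in controls and 32.3 to 39.2 FPKM in mutants (log2 fold change 0.01, adjusted p = 0.974), and its share went from 64.9% ± 2.85 (SD, n = 4) to 57.9% ± 2.43 (SD, n = 3). The ratio of Rxra to Rxrb was 0.513 ± 0.0701 in controls and 0.689 ± 0.0851 in mutants (exact two-sided permutation p = 0.0571, the smallest possible).

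Rxrg (ENSMUSG00000015843, chromosome 1, 167598384 to 167639623, plus strand), an RXR form known from skeletal muscle and from cells of the OL lineage, was the rarest of the family. Control samples 1 to 4 had 0.944, 1.25, 0.969 and 0.931 FPKM and mutant samples 1 to 3 had 1.15, 1.79 and 1.10 FPKM, from 54 to 103 reads. The high values were control sample 2 and mutant sample 2, and the groups overlapped. The log2 fold change was 0.26 (95% interval -0.10 to 0.62, adjusted p = 0.344 in limma-trend) and 0.10 without mutant sample 2. That sample also held the skeletal muscle markers: Tnnt3, a fast troponin, reached 17.9 FPKM there and 0.56 to 2.15 FPKM elsewhere. Whether muscle RNA had a part in the Rxrg value was not tested. As a share of the RXR sum, Rxrg went from 1.95% ± 0.409 (SD, n = 4) to 2.31% ± 0.884 (SD, n = 3), and without mutant sample 2 the difference turned to -0.14 percentage points.

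Angptl4 (ENSMUSG00000002289, chromosome 17, 33773750 to 33781575, minus strand) encodes a secreted inhibitor of lipoprotein lipase and is a classic target of all PPARs. It stood at 10.6, 8.48, 14.8 and 10.3 FPKM in CT1 to CT4 and 28.4, 10.6 and 16.7 FPKM in cMU1 to cMU3. Mutant sample 1 had the highest value, and mutant sample 2 lay within the controls. The log2 fold change of 0.64 was the largest of the 8 genes, with a 95% interval of -0.02 to 1.31 and an adjusted p of 0.216 in limma-trend. It was 0.29 (adjusted p = 0.524) without mutant sample 1 and 0.98 (adjusted p = 0.0528) without mutant sample 2, so its size rested on those 2 samples.

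Plin2 (ENSMUSG00000028494, chromosome 4, 86656565 to 86670060, minus strand) encodes perilipin 2, which coats lipid droplets. Levels of 15.6, 13.3, 14.9 and 17.2 FPKM in control samples 1 to 4 stood against 21.2, 15.0 and 16.9 FPKM in mutant samples 1 to 3. Only mutant sample 1 was above all controls. The log2 fold change was 0.20 (95% interval -0.08 to 0.48, adjusted p = 0.354 in limma-trend), and it was 0.07 without that sample.

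Ucp2 (ENSMUSG00000033685, chromosome 7, 100493337 to 100502020, plus strand) encodes a mitochondrial carrier of the uncoupling protein family and was the most abundant of the 9 genes. It was at 40.8, 39.4, 46.2 and 49.2 FPKM in CT1 to CT4 and 66.1, 45.2 and 51.3 FPKM in cMU1 to cMU3. Mutant samples 1 and 3 lay above all controls and mutant sample 2 did not. The log2 fold change was 0.29 (95% interval -0.0045 to 0.58, adjusted p = 0.210 in limma-trend), and 0.14 without mutant sample 1. The 3′ end of Ucp2 shares 305 bases with Dnajb13 on the opposite strand, whose level was at most 0.903 FPKM.

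**Figure D3:**
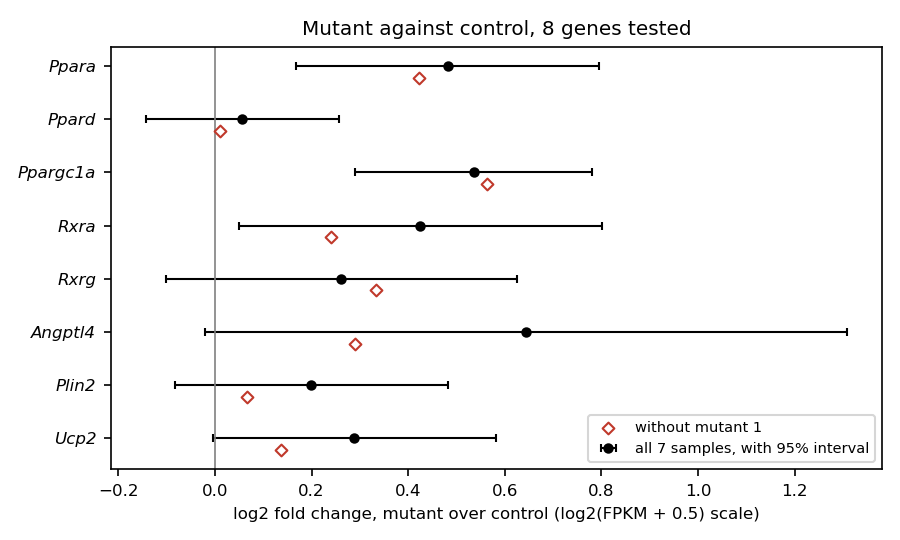
Log2 fold change of the 8 tested genes, mutant over control, on the log2(FPKM + 0.5) scale. Black points with 95% intervals use all 7 samples and open diamonds leave out mutant sample 1. Without it Rxra, Angptl4, Plin2 and Ucp2 move towards 0 (to 0.24, 0.29, 0.07 and 0.14), whereas Ppargc1a goes to 0.56.

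Rxra, Angptl4, Plin2 and Ucp2 were highest in mutant sample 1, at 1.74, 2.57, 1.39 and 1.51 times the control mean. Ppara and Pparg were highest in that sample too, at 1.69 and 1.75 times. The meningeal fibroblast markers were highest in the same sample. All 8 of these markers had fold changes above 0, none was called in limma-trend (5 at an unadjusted p under 0.05), and their median log2 fold change was 0.62. None of the 8 was at 0. Slc6a13, a transporter of leptomeningeal cells, had 99.5 to 131 FPKM in controls and 252, 143 and 183 FPKM in mutant samples 1 to 3. The part of meningeal tissue in the levels of these 6 genes was not tested. The genes most like Rxra over the 7 samples were Mical2 (r = 0.994), Fkbp10, Afap1l1, Htra3 and Smpd1. Those most like Angptl4 were Prss23 (r = 0.997), Ube2g2, Ptgis, Rin3 and Crtap. All of these were highest in mutant sample 1, and the coefficients include the difference between genotypes. With Rxra 709 genes had r above 0.9, and with Angptl4 450 genes did.

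Some markers of astrocytes, OLs and OL progenitors (OPCs) were called in limma-trend, as Ppargc1a was, whereas Ppara was not. Of 8 astrocyte markers, Aldh1l1, Slc1a2 and Gja1 rose (log2 fold changes 0.55, 0.67 and 0.64), and all 8 were above 0. An unadjusted p under 0.05 in limma-trend was seen in 5 of them, against 24.4% over all tested genes. The sum of the 8 was 2898 to 3319 FPKM in controls and 3623 to 4490 FPKM in mutants, lowest among mutants in sample 1. Of 10 OL markers 9 had fold changes below 0 (7 under quantile normalization), and Mag (-0.45, adjusted p = 0.0437) and Cnp (-0.46, adjusted p = 0.0480) fell. These calls were lost with single samples left out, and the highest adjusted p was 0.0847 for Aldh1l1, 0.131 for Slc1a2, 0.0876 for Gja1, 0.144 for Mag and 0.148 for Cnp. Mag and Cnp were also not called under quantile normalization (adjusted p = 0.155 and 0.0963). With the sample numbers as a replicate block, a description only, their adjusted p was 0.0726 and 0.0605. Slc1a2 was not called under quantile normalization (0.0582) or median ratio scaling (0.0595), nor Cnp under the latter (0.0595). Of 6 OPC markers 4 were below 0 and 2, Bmp4 (0.16) and Ptprz1 (0.08), were above. Pdgfra was not called (-0.14, adjusted p = 0.537 in limma-trend). Gpr17 (-0.55, adjusted p = 0.0327) and Cspg4 (-0.49, adjusted p = 0.0474) fell, under both other scalings as well. With single samples left out their adjusted p reached 0.114 and 0.139. The OPC markers summed to 388 to 426 FPKM in controls and 313 to 351 FPKM in mutants. Gpr17 held the largest part, with 212 to 276 FPKM in controls and 151 to 180 FPKM in mutants. The paper lists Gpr17 among transcripts enriched in myelin-forming OLs, so these sums do not stand for OPCs alone. Pdgfra overlapped, with 38.11 to 58.12 FPKM in controls and 39.28 to 47.35 FPKM in mutants. Of 8 endothelial markers all were above 0 and none was called (5 at an unadjusted p under 0.05), with a sum of 159 to 187 FPKM in controls and 194 to 219 FPKM in mutants. Whether the mix of cells had a part in the values of Ppara and Ppargc1a was not tested.

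**Figure D4:**
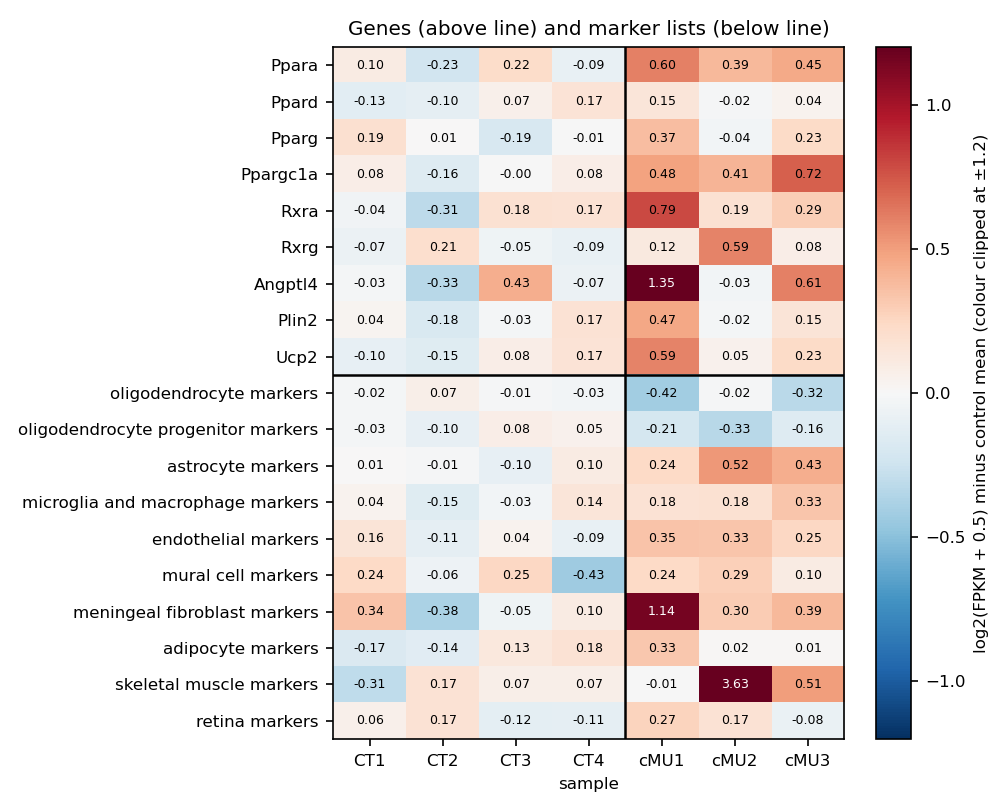
Each cell gives log2(FPKM + 0.5) minus the control mean, in control samples (CT1 to CT4) and mutant samples (cMU1 to cMU3). Rows above the line are the 9 genes, and rows below it are means over the tested genes of each marker list. Only 2 skeletal muscle markers, 1 adipocyte marker and 1 retina marker were tested. Red is higher and blue lower than the control mean. Mutant sample 1 holds the highest meningeal value (1.14) with the highest Rxra (0.79), Angptl4 (1.35), Plin2 (0.47) and Ucp2 (0.59) values, mutant sample 2 the highest muscle (3.63) and Rxrg (0.59) values, and mutant sample 3 the highest Ppargc1a (0.72).

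By level, the order in controls was Ucp2, Ppard, Rxra, Plin2, Angptl4, Ppargc1a, Ppara, Rxrg and Pparg. Ucp2 lay clear of Ppard in every sample range, and Angptl4 of Ppargc1a. The ranges of neighbours overlapped from Ppard to Rxra, from Rxra to Plin2 and from Plin2 to Angptl4, as did those of Ppara and Rxrg in controls, although in mutants Ppara (1.98 to 2.37 FPKM) lay above Rxrg (1.10 to 1.79 FPKM).

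The sample numbers were taken to pair mutant and control samples. No label gives this pairing, which was read from these same data, so the pair counts and every fit with a replicate block are a description only. Ppara, Ppargc1a, Rxra, Rxrg, Angptl4, Plin2 and Ucp2 were higher in the mutant in 3 of 3 such pairs, or 7 of the 8 tested genes, which held for 32.7% of all tested genes. The mutant was 1.35, 1.55 and 1.72 times the control in pairs 1 to 3 for Ppargc1a, and 2.68, 1.25 and 1.13 times for Angptl4. The pair ratios of Rxra, 1.81, 1.43 and 1.08, were also uneven. Ppard was higher in 2 pairs and slightly lower in the third (0.982 times). In a fit with the numbers as a block, which rests on that pairing, Ppargc1a was the only one called (adjusted p = 0.0325 in limma-trend). Control sample 4 has no partner there and adds nothing to the genotype effect. The log2 fold change of Ppargc1a, 0.56, was thus the same as with that sample left out. Left out without a block, it gave an adjusted p of 0.0702 in limma-trend.

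**Figure D5:**
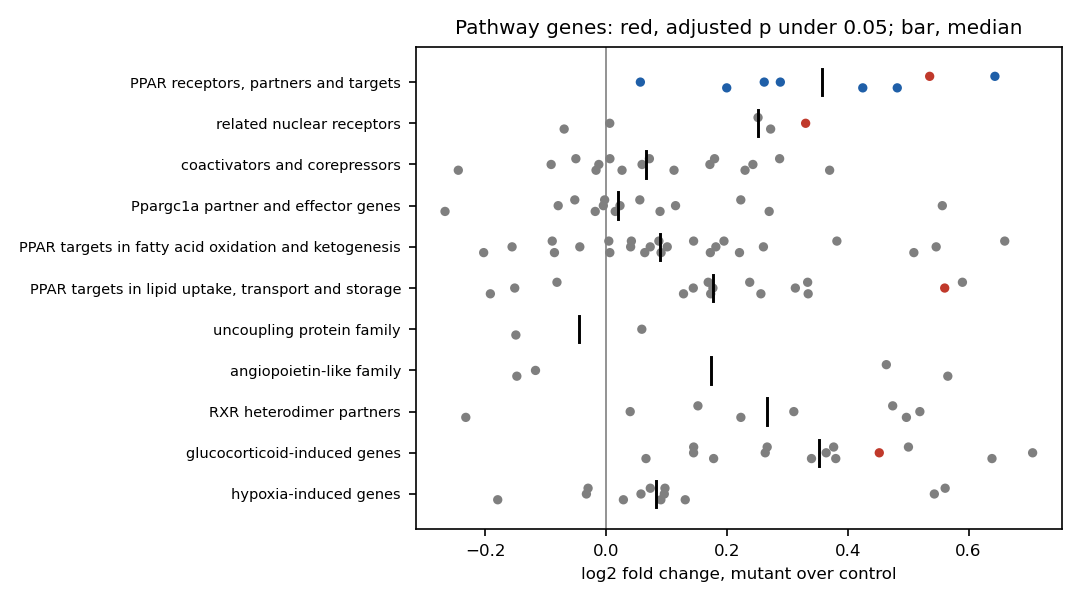
Log2 fold change of each tested gene, mutant over control, in the 8 tested genes (top row, blue) and in 10 lists of other genes around the PPARs (grey), with red for an adjusted p under 0.05 and black bars for medians. Points lie between -0.27 and 0.71, with red points for Ppargc1a, Nr1d2, Scd1 and Hif3a.

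Other genes of the pathway showed few calls. Among 24 tested target genes of fatty acid oxidation and ketogenesis, 0 were called in limma-trend, 5 had an unadjusted p under 0.05 (24.4% over all tested genes), 19 had fold changes above 0 (15 and 16 under the 2 other scalings) and the median was 0.09. Vnn1, a pantetheinase, had the highest fold change there (0.66, adjusted p = 0.138). Acaa2, a thiolase of mitochondrial beta oxidation, had 0.55 (adjusted p = 0.126). Mutant sample 1 was again the highest sample for both. Cyp4a10 and Cyp4a14, PPARalpha targets of the liver, were listed at 0 in all samples.

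Among 15 tested targets in lipid uptake, transport and storage, Scd1 rose and 11 others were above 0 (median 0.18). Scd1 encodes stearoyl-CoA desaturase and had 206, 212, 193 and 184 FPKM in CT1 to CT4 and 236, 340 and 313 FPKM in cMU1 to cMU3 (log2 fold change 0.56, adjusted p = 0.0480), with mutant sample 1 the lowest of the mutants. It was no longer called after median ratio scaling (adjusted p = 0.0740) or with any 1 sample other than mutant sample 1 left out (up to 0.139). Cd36, a fatty acid receptor, had 0.59 (adjusted p = 0.138), and Fabp3, a fatty acid binding protein, had 0.33 (adjusted p = 0.122). Scd1 and Fabp3 were the 2 of 15 with every mutant sample above every control, which held for 12.9% of all tested genes.

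Of 5 related receptors listed beside the PPARs, Nr1d2 (REV-ERB beta) was called and the rest, Nr1h3, Nr1d1, Nr1h2 and Rxrb, were not. Nr1d2 lost its call under quantile normalization (adjusted p = 0.0582), under median ratio scaling (0.0546) and with no filter on low values (0.0775). None of 16 coactivators and corepressors was called in limma-trend (2 at an unadjusted p under 0.05), and their median of 0.07 turned to -0.01 under quantile normalization. Ncoa1 (0.29) and Nrip1 (0.24) were the 2 of 16 with every mutant sample above every control, which held for 12.9% of all tested genes. Ppargc1b, the nearest relative of Ppargc1a, had 0.37 (adjusted p = 0.292). Of 14 tested partners and effectors of Ppargc1a, 0 were called in limma-trend (2 at an unadjusted p under 0.05), 8 were above 0 and 6 below, and the median was 0.02 (-0.03 under each of the other scalings). Esrra, a receptor that works with Ppargc1a in mitochondrial gene expression, had 0.27 (adjusted p = 0.243), and Tfb1m, a mitochondrial ribosomal RNA methyltransferase, had -0.27 (adjusted p = 0.184). Every mutant sample lay below every control for Tfb1m, and above for 1 of the 14, Gabpa (0.22, adjusted p = 0.116).

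Within the RXR partners 0 of 8 were called in limma-trend (3 at an unadjusted p under 0.05, against 24.4% over all tested genes) and 7 were above 0 (6 under either other scaling), with a median of 0.27. The retinoic acid receptor gene Rarb (0.52, adjusted p = 0.133) and the thyroid hormone receptor gene Thrb (0.50, adjusted p = 0.0675) had every mutant sample above every control. That held for 12.9% of all tested genes. Thra was the one below 0 (-0.23, adjusted p = 0.0877), and its groups were separate too, with every mutant below every control. Over all 13866 tested genes, groups were separate in either direction in 2931. Slc25a27 and Slc25a14, brain uncoupling proteins, had -0.15 and 0.06, and Ucp1 was listed at 0 in all samples. Angptl2, an abundant relative of Angptl4, had 22.7 to 32.01 FPKM in controls and 53.2, 30.6 and 34.5 FPKM in mutant samples 1 to 3 (0.46, adjusted p = 0.163), mutant sample 1 again being the highest.

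Angptl4, Plin2 and Ucp2 also answer to other signals, for which lists of genes were set beside them. All 14 glucocorticoid-induced genes had fold changes above 0, also under the other scalings, with a median of 0.35. Of the 14, 8 had an unadjusted p under 0.05 in limma-trend, against 24.4% over all tested genes. Only 1 was called: Hif3a, with 6.95 to 8.66 FPKM in controls and 10.8 to 11.5 FPKM in mutants (0.45, adjusted p = 0.0415). That call was lost with any 1 sample left out (adjusted p 0.0520 to 0.109) and under both other scalings (0.0771 and 0.0546). Sult1a1 (0.71, adjusted p = 0.104), Dusp1 (0.64), Cdkn1a (0.50) and Mt2 (0.38) were not called. Of 12 tested hypoxia-induced genes 0 were called in limma-trend (3 at an unadjusted p under 0.05, against 24.4% over all tested genes), with a median of 0.08, and Egln3 (0.56, adjusted p = 0.164) and Adm (0.54, adjusted p = 0.0789) had the highest fold changes. The part of these signals in the levels of Angptl4, Plin2 and Ucp2 was not tested.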

How the data were processed

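Polyadenylated RNA of P14 optic nerves (4 control and 3 mutant mice) was sequenced with a stranded kit in single end mode. The submitters' processing notes name STAR 2.5.1b, RSEM 1.2.22, edgeR and GRCm38. The table that the authors deposited lists 22880 genes, with 14 sample columns: FPKM, and a normalized count (a signal, the RSEM estimate divided by a factor per sample whose method is not given in the sources used here). Gene width, also deposited, is in bases. Columns of the authors' own comparison (log2 ratio, p-value, FDR and cluster) were not used. Steps between low normalized counts gave the reads behind a value, and 73.3 to 78.9% of values from 0.5 to 10.5 reads were whole within 0.02, too few for the count test planned in case of counts. Whether counting used the strand is not given in the sources used here.

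limma-trend (limma 3.58.1, R 4.3.3) was fitted on log2(FPKM + 0.5), which makes fold changes of low genes smaller, with a filter of 0.5 FPKM in 3 samples, genotype as its single term and Benjamini-Hochberg adjustment over 13866 genes. The procedure was tested on simulated data. Single values were compared by the two-sided exact permutation test over 35 groupings. The genes and lists were chosen with earlier results of these data known. Named are the 9 genes, Fasn, Rxrb, list genes past the threshold, up to 4 others per list with the largest change at a mean of at least 1 FPKM, and the 5 genes most like Ppargc1a, Angptl4 and Rxra. Thra, Ppargc1b, genes listed at 0, Adipoq and genes overlapping a member were named after their values were seen, and some list genes are not reported here. Same-number samples deviated from their group means together (r = 0.17, 0.41 and 0.27 across genes, against -0.35 to 0.21 for other pairs). The value of pair 1 lay below that of CT4 with cMU1 (0.21). The numbers, which the labels do not explain, were still taken to pair samples, and no independent source shows the pairing. Other pseudocounts, filters, scalings, weights, a robust fit, the replicate block and leaving out each sample were tried.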

Additional observations from a re-analysis of the deposited data

Results flagged for a closer look

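In a check of each gene and receptor share for a sample far from its group, made in the 4 controls, Rxrg stood out: the gap of control sample 2 (1.25 FPKM) to the next control was 0.882 of the whole range of the controls and above Dixon's critical value for 4 samples. This was 1 of 19 groups checked, and chance gives such a value in about 1 of 20 groups. Rxrg rested on 54 to 103 reads per sample.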

How the results depend on the processing

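Over 8 genes and 16 alternatives, 119 of 128 results kept their direction and their side of the threshold. Ppargc1a lost its call in the 8 cases given above, and Ppard turned to -0.0039 under quantile normalization. No filter on low values left 95 genes called, 0 members and 0 genes of the PPAR lists (2 as reported). Under quantile normalization 0 members and 1 list gene were called, and median ratio scaling left 0 list genes. The share of calls that were higher was 48.2% as reported, 33.4% (141 of 422 genes, 281 lower) under quantile normalization and 37.9% (135 higher, 221 lower) under median ratio scaling. Array weights gave 1525 genes and 6 list genes. The replicate block gave 1159 genes (890 higher, 269 lower), 5 list genes and an adjusted p of 0.0325 for Ppargc1a, and it changed the call of no other member. In that fit control sample 4, without a partner, adds nothing to the genotype effect. The pairing behind that fit was read from these same data, so its counts and calls are a description only. With 1 sample left out, 6 to 909 genes, 0 or 1 member and 0 to 2 list genes were called, against 363, 1 and 2: 62, 15, 6 and 119 genes without control samples 1 to 4 and 191, 909 and 6 without mutant samples 1 to 3. The difference in the share of Rxrg ran from -0.14 percentage points without mutant sample 2 to 0.703 without mutant sample 1. The causes were not tested. Nothing in the labels says that samples differ in batch. At 16 to 35 reads for Pparg and 54 to 103 for Rxrg, counting error limits what can be seen.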
